A study of Mus musculus with 20 samples.

Results

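The genes of de novo purine and pyrimidine synthesis were followed in 20 mouse tumors by RNA-Seq: Cad, Dhodh, Umps and Ctps for pyrimidines, and Ppat, Gart, Paics, Adsl, Atic and Impdh2 for purines. These 10 genes were picked by name out of 35226 genes listed in the count table, and Umps was on the list because it was already known to be lower after cotreatment than after cisplatin in these tumors. All 10 were among the 16665 genes that passed the filter on low counts. The tumors grew from LLC1 cells, an established Lewis lung carcinoma line of the mouse, injected under the skin of the right flank of male C57Bl6/J mice aged 8 to 10 weeks. Mice received vehicle, KW6002 alone, cisplatin alone, or cisplatin with KW6002 (called cotreatment), with 5 tumors in each of the 4 groups. Cisplatin is a platinum drug that crosslinks DNA, and KW6002, also called istradefylline, is an antagonist of the adenosine A2A receptor. All tumors came from 1 cell line in 1 host strain, and the doses and days for tumor-bearing mice could not be taken without ambiguity from the sources used here. RNA came from whole tumors, so that fewer cells of a type and less RNA per cell cannot be told apart.

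Both pathways build nucleotides from small precursors on phosphoribosyl pyrophosphate (PRPP), whereas salvage enzymes recycle ready-made bases and nucleosides. In the pyrimidine pathway the ring is made first: CAD, a single protein with several activities, carries out the opening steps, DHODH oxidizes dihydroorotate in the mitochondrion, and UMPS attaches PRPP and forms UMP, which CTP synthase (CTPS) later uses as UTP to make CTP. In the purine pathway the ring is built on the sugar: PPAT commits PRPP, the multifunctional GART and PAICS and then ADSL and ATIC complete IMP, and IMPDH2 diverts IMP toward GMP. Dividing cells rely on both pathways for RNA and DNA, and the transcription factor MYC is known to drive many of these genes.

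The libraries held 28371364 to 40965731 counts per tumor, and the 10 genes had 496 to 14534 counts each, so that counting error was small beside the spread between tumors. Levels are given in counts-per-million (CPM) after scaling of the libraries by trimmed mean of M values. A gene was called where its Benjamini-Hochberg adjusted P in edgeR's quasi-likelihood test was under 0.05 and its log2 fold change was at least 0.32 in size, the limits the study used. Library codes fell into an earlier and a later run of numbers. Of the vehicle tumors 1 had an earlier and 4 a later code, of the KW6002 tumors 2 and 3, of the cisplatin tumors 2 and 3, and of the cotreated tumors 3 and 2. The labels do not say what a code marks, so values within each run are given where they bear on a result. A list meant to mark carcinoma cells held keratins of simple epithelium with Epcam and Vim. Its summed level had a median of 3803 CPM in vehicle tumors and 3819.8 CPM in cotreated tumors, most of it from Vim (means of 3394 and 3217 CPM). The sum thus follows Vim and does not give the share of carcinoma cells, which was not measured. Of 4 tested markers 1 was called, Krt8, which was higher after cotreatment at 191 against 129 CPM, beside 13.1% of all genes, and was also called after cisplatin at 185 CPM. Krt18 was at 316 against 273 CPM and Krt19 at 2.29 against 2.42 CPM, and Epcam was under 0.1 CPM on average in every group.

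Short motifs at the gene starts are shown as a description, among them the E-box, which MYC binds. The windows run from 250 bases before to 50 bases after each RefSeq start (GRCm38.p6). Of the 10 genes 9 had a window, with 10 windows in all, since Ctps had 2. A gene was counted where any of its windows held the motif. CACGTG, the E-box, reads the same on both strands. It was found in 3 of these 9 genes, and in 7.2% of all 32851 windows. The stretches that hold it in Paics (chr5:76951087-76951116, plus strand), Atic (chr1:71557137-71557166, plus strand) and Impdh2 (chr9:108560314-108560343, plus strand) are printed 5′ to 3′ with the E-box in capitals.
Paics: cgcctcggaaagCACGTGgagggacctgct
Atic: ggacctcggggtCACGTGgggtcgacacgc
Impdh2: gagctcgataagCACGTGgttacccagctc
The E-box began 203 bases before the start of Paics, 7 before that of Atic and 110 before that of Impdh2. The GC box GGGCGG, searched on both strands, was found in 9 of 9 genes, for Ctps in 1 of its 2 windows, and in 35.7% of all windows. The CCAAT box (CCAAT, both strands) was found in 4 of the 9 genes, Gart, Paics, Atic and Impdh2, and in 37.4% of all windows. The 250 bases before the start of Umps (chr16:33967039-33967288, minus strand) are shown because Umps had the lowest level relative to vehicle, and they hold 1 GC box, in capitals, and no E-box.
Umps: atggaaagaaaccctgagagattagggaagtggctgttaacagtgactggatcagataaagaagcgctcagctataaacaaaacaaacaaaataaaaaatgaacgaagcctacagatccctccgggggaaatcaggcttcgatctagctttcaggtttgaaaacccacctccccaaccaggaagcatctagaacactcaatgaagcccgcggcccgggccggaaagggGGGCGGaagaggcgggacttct
These letters describe the sequence only, since no binding was measured in these tumors. The shares over all windows count windows, not genes, and are not limited to genes expressed here. Any link between these motifs and the changes with treatment was not tested.

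In vehicle tumors the 10 transcripts differed widely in level. Per kilobase of annotated exon (RPKM, here CPM divided by exon length), Paics was highest at 114 RPKM, followed by Atic at 39.8, Gart at 34.6, Ctps at 33.7 and Umps at 33.1 RPKM. Cad stood at 24.6, Adsl at 19.8, Ppat at 16.2 and Impdh2 at 15.5 RPKM. Dhodh, the only mitochondrial enzyme of the 10, was lowest at 3.52 RPKM. Ppat and Paics lie head to head on chromosome 5 and their annotated starts overlap by 272 bases on opposite strands. If counting ignored the strand, a few reads there may have counted for neither gene, under the union mode that the study names. The other overlapping gene with more than 15 counts in any tumor was Ndufaf3, which shares 48 bases with Impdh2.

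The first comparison asked whether blocking the receptor alone changed these genes. No gene passed the test: 0 of 10 were called after KW6002 against vehicle, where 0% of all tested genes were called lower and 0% higher, and 0 of 10 had an unadjusted P under 0.05, against 2.03% of all genes. The log2 fold changes ran from -0.07 for Dhodh to 0.04 for Ppat, with a median of -0.01. Umps was measured at 111, 115, 122, 119.8 and 109 CPM in the 5 vehicle tumors and at 118, 110.0, 130.2, 118 and 104 CPM in the 5 KW6002 tumors. The ranges overlapped, and the difference was 0.01 on the log2 scale (95% interval -0.12 to 0.14, adjusted P = 1, edgeR). The 95% interval was narrowest for Ppat, from -0.07 to 0.15, and widest for Dhodh, from -0.27 to 0.14, and the highest upper bound was 0.18, for Adsl.

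**Figure D1:**
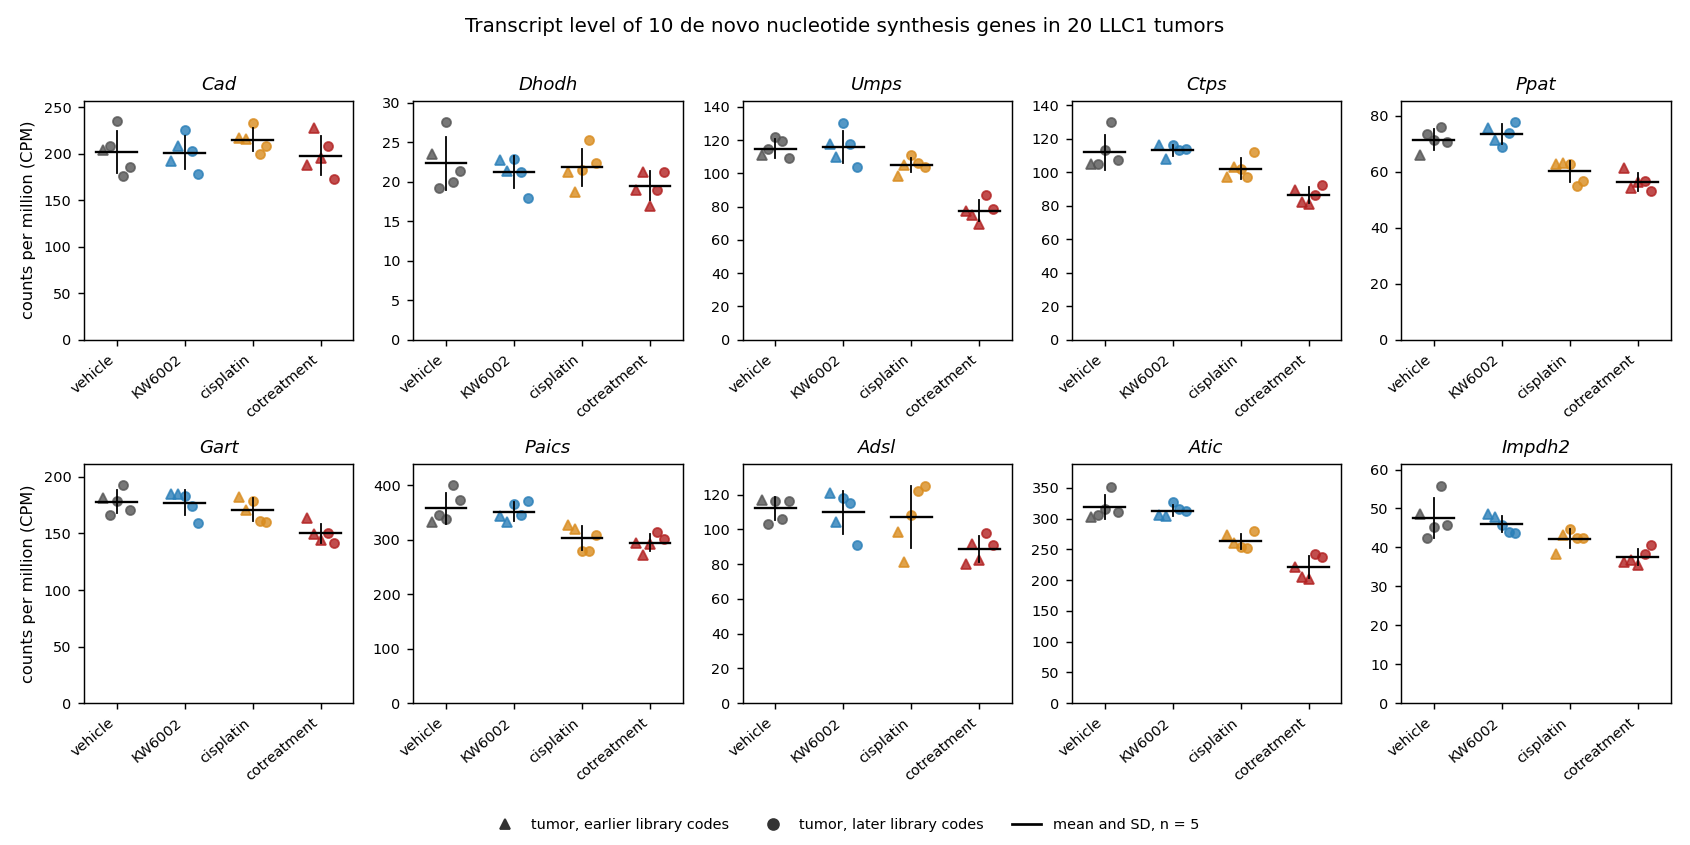
CPM (y axis, from 0) of the 10 genes in each tumor by treatment group (x axis), with triangles for earlier and circles for later library codes, and the mean and SD of 5 tumors in black. Umps lies at 69.7 to 87.2 CPM in the cotreated tumors and at 98.5 CPM or more in every other tumor, while the 4 groups of Cad overlap.

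After cisplatin alone 3 of the 6 purine genes, Ppat, Paics and Atic, were lower by the adjusted P. Ppat, which commits PRPP to purines, was measured at 66, 73.5, 71.4, 75.9 and 70.5 CPM in vehicle tumors and at 62.7, 63, 62.9, 55 and 56.7 CPM in cisplatin tumors. Every cisplatin tumor was below every vehicle tumor, and the log2 fold change was -0.25 (SE 0.055, adjusted P = 0.00385, edgeR). Paics, which carries out a pair of middle steps, went from 358 ± 28 CPM (mean ± SD, n = 5) to 303 ± 22.4 CPM, with no overlap (-0.24 on the log2 scale, edgeR adjusted P = 0.01). Atic, which makes IMP, went from 318 ± 19.5 to 263 ± 12.1 CPM (n = 5), again with no overlap (-0.27, edgeR adjusted P = 0.00275). These 3 passed the adjusted P threshold without reaching the fold limit, so that 0 of the 9 genes other than Umps were called. Across all genes 8.24% were lower by the adjusted P alone, 4.57% were called lower by both limits, 6.01% were called higher and 5.12% were lower with no overlap.

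The other genes moved less after cisplatin. Impdh2 was at 47.6 ± 5.07 CPM in vehicle and 42.2 ± 2.43 CPM in cisplatin tumors (n = 5), a difference of -0.17 on the log2 scale that did not pass the test (edgeR adjusted P = 0.0727). Ctps differed by -0.13 (edgeR adjusted P = 0.151), Adsl by -0.07, Gart by -0.06, Dhodh by -0.03 and Cad by 0.09 on the same scale, and none of these passed. Within the later library codes alone Adsl was at 0.115 and Dhodh at 0.086, so that both changed sign, and neither passed (edgeR adjusted P = 0.388 and 0.666). Umps was at 98.5, 105, 111, 106 and 104 CPM after cisplatin, a log2 difference of -0.14 from vehicle that is given without a test. Of the 9 genes other than Umps, 5 had an unadjusted P under 0.05, as did 30.9% of all genes, and their median log2 fold change was -0.13 beside 0.00 over all genes.

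After cotreatment, 5 of the 9 genes other than Umps were called lower than in vehicle tumors and none higher, or 2 when vehicle replicate 4 was left out. All genes tested gave 10.4% lower and 13.1% higher. The fit without vehicle replicate 4 called 1634 of all genes lower, beside 1739 in the main fit. Umps was also past both limits, which makes 6 of 10, but its choice rested on cotreated tumors and it is not counted here. The median log2 fold change of the 9 genes was -0.33 beside -0.02 over all genes. By the adjusted P alone 7 of the 9 were lower, as were 17.7% of all genes, and 7 had groups that did not overlap, as did 12.4% of all genes. The vehicle tumors are shared with the cisplatin comparison, so that a low or high vehicle tumor moves both.

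Among the 3 pyrimidine genes other than Umps, Ctps was called lower, and Cad and Dhodh were not called. Umps stood at 77.1, 75.2, 69.7, 87.2 and 78.8 CPM after cotreatment. All 5 values were below the lowest of the other 15 tumors. Its mean fell from 115 ± 5.53 CPM in vehicle tumors to 77.6 ± 6.39 CPM (n = 5), a log2 difference of -0.57, given as a description. Ctps was measured at 105, 105, 113, 129.8 and 107 CPM in vehicle tumors and at 89.6, 82.4, 80.8, 86.6 and 92.5 CPM after cotreatment. The groups did not overlap, and Ctps was lower by -0.37 on the log2 scale (SE 0.060, edgeR adjusted P = 7.41e-05). Without vehicle replicate 4, the highest of its group, this became -0.31 and fell short of the fold limit. Cad was level, at 202 ± 22.8 CPM in vehicle and 198 ± 21 CPM in cotreated tumors (n = 5), with a log2 difference of -0.02 (95% interval -0.19 to 0.14, edgeR adjusted P = 0.853). Dhodh went from 22.3 ± 3.36 to 19.5 ± 1.81 CPM (n = 5), and its difference of -0.19 did not pass (95% interval -0.40 to 0.02, edgeR adjusted P = 0.141).

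**Figure D2:**
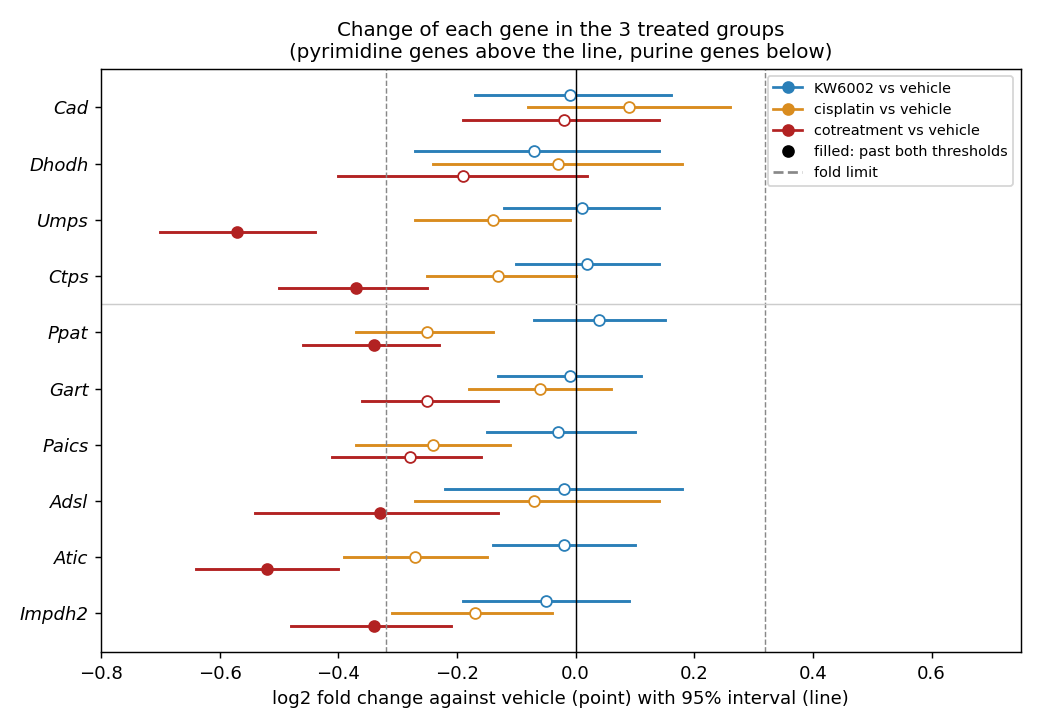
Log2 fold change against vehicle (x axis) of each gene (y axis) for KW6002, cisplatin and cotreatment, with 95% intervals and with filled points where both thresholds were passed. Filled points appear for 5 of the 9 genes other than Umps, all after cotreatment, and for Umps, which was picked for its low level there, and the points of Cad stay between -0.02 and 0.09. The intervals of Umps after cisplatin and cotreatment are no test, since its choice used these tumors.

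All 6 purine genes were lower by the adjusted P after cotreatment, beside 17.7% of all genes, and 4 of the 6 were also past the fold limit, beside 10.4%. Atic had the largest difference of these, with 303, 306, 316, 352 and 311 CPM in vehicle tumors and 221, 205, 201, 242 and 237 CPM in cotreated tumors. These groups lie far apart, and the log2 fold change was -0.52 (SE 0.057, edgeR adjusted P = 1.21e-06). Ppat was at 61.5, 54.1, 56.5, 56.8 and 53.2 CPM after cotreatment, all below the lowest vehicle tumor at 66 CPM. Its log2 fold change was -0.34 (SE 0.055, edgeR adjusted P = 7.72e-05). Impdh2 was at 48.5, 42.5, 45.3, 55.8 and 45.7 CPM in vehicle tumors and at 36.3, 36.8, 35.5, 38.2 and 40.6 CPM after cotreatment. The groups again did not overlap (-0.34, SE 0.066, edgeR adjusted P = 0.000382). Adsl, which acts at 2 points of the purine pathway, ranged from 103 to 117 CPM in vehicle tumors and from 79.8 to 98.1 CPM in cotreated tumors (-0.33, SE 0.098, edgeR adjusted P = 0.0111). Gart, at 150.0 ± 8.54 CPM, was lower by -0.25 (edgeR adjusted P = 0.00201), and Paics, at 295 ± 15.1 CPM (n = 5), by -0.28 (edgeR adjusted P = 0.00113). Within the later library codes alone only Ppat and Atic of the 6 purine genes passed the adjusted P. Gart, Paics, Impdh2 and Adsl did not (edgeR adjusted P = 0.0526, 0.0625, 0.102 and 0.214), with Adsl at -0.20.

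Of the 5 calls, that of Atic was kept when any 1 of the 20 tumors was left out. Ppat, Adsl and Impdh2 lay just past the fold limit, and without vehicle replicate 4 the count fell from 5 to 2, with Adsl and Atic still called. Ppat was also not called without vehicle replicate 2 or cotreatment replicates 2 or 5, Adsl without vehicle replicates 1, 3 or 5 or cotreatment replicates 1 or 3, and Impdh2 without cotreatment replicate 3. With the code run as a term Adsl was at -0.29 and not called, which left 4 of the 9 genes. That fit called 1686 of all genes lower, beside 1739 in the main fit. In the fit without vehicle replicate 4, Ctps, Ppat and Impdh2 dropped under the fold limit, and over all fits without 1 tumor the adjusted P of the 5 genes stayed at or under 0.0421 (edgeR). Within the later library codes alone, with 4 vehicle and 2 cotreated tumors, 3 of the 9 genes were called, namely Ctps, Ppat and Atic. There 920 of all genes tested were called lower, beside 1739 in the main fit. The number of genes tested within these codes is not given here, so that no share stands beside the 3 of 9. The earlier codes held 1 vehicle tumor and gave no test of their own.

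Cotreated tumors were also set against KW6002 tumors, which asks what cisplatin did in the presence of KW6002. Here 3 of the 9 genes other than Umps were called lower, beside 10.7% of all genes: Ctps (-0.39, adjusted P = 4.5e-05, edgeR), Ppat (-0.38, adjusted P = 2.46e-05, edgeR) and Atic (-0.50, adjusted P = 1.92e-06, edgeR). For 5 of the 9 the groups did not overlap, which held for 12.7% of all genes. Umps differed by -0.58 on the log2 scale, given as a description. Adsl, at -0.31 (edgeR adjusted P = 0.0169), and Impdh2, at -0.29 (edgeR adjusted P = 0.00153), fell short of the fold limit. Within the earlier library codes alone both passed both limits (-0.405, edgeR adjusted P = 0.0207, and -0.403, edgeR adjusted P = 0.00516). Within the later codes alone Adsl was at -0.184 and Impdh2 at -0.163, and neither was called. Ctps, Ppat and Atic were called within each run.

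In the contrast through which Umps had been noticed, cotreatment against cisplatin, values are given as a description. Umps differed by -0.43 on the log2 scale, by its choice, and by -0.45 within the earlier and -0.36 within the later library codes. Of the other 9 genes 0 were past both limits, where 1.71% of all genes were lower. Ctps (-0.24) and Atic (-0.25) passed the adjusted P but not the fold limit, where 537 of all 16665 genes were lower by the adjusted P alone. Adsl (-0.27), Gart (-0.19), Impdh2 (-0.17), Dhodh (-0.16) and Cad (-0.12) passed neither, with 95% intervals that included 0 for Dhodh (-0.37 to 0.05) and Cad (-0.28 to 0.05). Without cisplatin replicate 2 Adsl passed both limits. Ppat was at -0.09 and Paics at -0.04. Between the earlier and later codes Adsl was at -0.08 and -0.32, Atic at -0.34 and -0.13, Dhodh at -0.06 and -0.19, Cad at -0.08 and -0.17, and Paics at -0.17 and 0.09, so that the order of the genes differed between the runs. The median over these 9 was -0.17 beside -0.01 over all genes. The interaction term, which asks whether cotreatment departs from the sum of the separate effects of each drug, called 0 of these 9 genes in edgeR, beside 0.03% of all genes called lower, and 0 of them in DESeq2. Its unadjusted P was under 0.05 for 3 of the 9, and for 12.2% of all genes (edgeR).

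The pathways were next compared as averages. For each tumor the log2 CPM of the 4 pyrimidine genes and of the 6 purine genes was averaged after subtraction of the vehicle mean. The purine average was 0.00 ± 0.07 in vehicle, -0.01 ± 0.04 in KW6002, -0.18 ± 0.03 in cisplatin and -0.34 ± 0.05 in cotreated tumors (n = 5). Vehicle tumors ran from -0.07 to 0.11, cisplatin tumors from -0.21 to -0.14 and cotreated tumors from -0.41 to -0.27, so that these 3 groups did not overlap. The pyrimidine average was 0.00 ± 0.09, -0.01 ± 0.09, -0.05 ± 0.04 and -0.29 ± 0.07 in the same order (n = 5). Cisplatin tumors, from -0.10 to -0.00, lay among or near the vehicle tumors, from -0.08 to 0.16, while cotreated tumors ran from -0.40 to -0.23. Without Umps, the average of Cad, Dhodh and Ctps was 0.00 ± 0.11 in vehicle, -0.01 ± 0.09 in KW6002, -0.02 ± 0.05 in cisplatin and -0.19 ± 0.07 in cotreated tumors (n = 5). The cotreated tumors ran from -0.30 to -0.10, below the lowest vehicle and cisplatin tumors at -0.08 but overlapping KW6002 tumors, which reached -0.15. Within the later library codes the purine average was 0.01 in vehicle, -0.17 in cisplatin and -0.30 in cotreated tumors, and the earlier codes gave -0.02, -0.19 and -0.38. Pyrimidine averages without Umps in these groups were -0.00, 0.01 and -0.18 within the later codes and 0.01, -0.06 and -0.20 within the earlier ones. Cotreated tumors were thus lowest of these 3 groups within both runs, with 1 vehicle tumor in the earlier one.

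**Figure D3:**
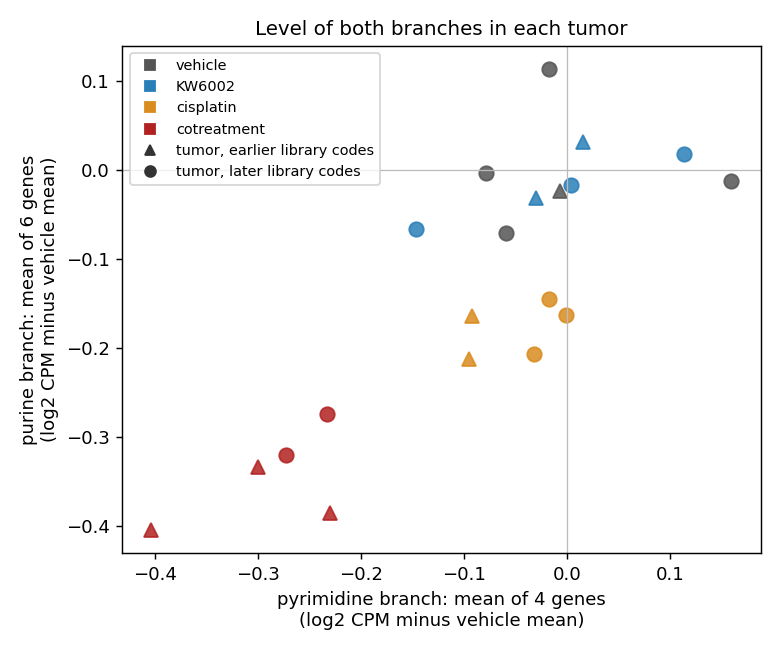
Mean log2 CPM of the 4 pyrimidine genes (x axis) and of the 6 purine genes (y axis) in each of the 20 tumors, less the vehicle mean, with color for the group and shape for the run of library codes. Cisplatin tumors lie at -0.21 to -0.14 on the purine axis and cotreated tumors at -0.41 to -0.27. The pyrimidine axis includes Umps, which was picked for its low level after cotreatment, and the cotreated mean there is -0.29, or -0.19 without Umps.

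The order of levels across groups differed from gene to gene. For Umps, vehicle (115 CPM) and KW6002 (116 CPM) did not differ beyond their spread, cisplatin (105 CPM) overlapped both, and cotreatment (77.6 CPM) was clear of all 3. For Atic the order was vehicle at 318, KW6002 at 313, cisplatin at 263 and cotreatment at 221 CPM, and only the first of these steps overlapped. For Paics the step from vehicle to cisplatin was clear, whereas cisplatin (303 CPM) and cotreatment (295 CPM) overlapped. Ppat stood at 71.5 CPM in vehicle, 73.5 after KW6002, 60.1 after cisplatin and 56.4 CPM after cotreatment, with overlap between the first pair and between the last pair. Over the 20 tumors and 12743 other genes with a mean of at least 50 counts, the profiles nearest to that of Umps, by root mean square difference of vehicle-centered log2 CPM, were those of Fkbp4 (0.081), Exo1 (0.085), Hirip3 (0.092), Ppil1 (0.103) and Glb1 (0.103). Of the other 9 genes Atic was nearest, at rank 10 (0.107), followed by Ctps at rank 92 and Impdh2 at rank 240, and Cad was farthest at rank 5367. These distances include the cisplatin and cotreated tumors on which Umps was picked. A near rank is thus a description of a like drop, and shared control was not tested.

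The remaining enzymes of the same pathways were counted too. Of 10 such genes, which supply PRPP or carry out other de novo steps, 1 was called higher and 0 lower after cotreatment against vehicle, beside 13.1% and 10.4% of all genes, with a median of -0.07 and a range from -0.24 to 0.34. By the adjusted P alone 3 were lower and 2 higher, beside 17.7% each way over all genes, and the 2 of 10 higher is near that share. The called gene was Prps2, a PRPP synthetase, at 47.7 ± 3.64 CPM in vehicle and 60.2 ± 7.55 CPM in cotreated tumors (n = 5; 0.34 on the log2 scale, edgeR adjusted P = 0.00118), a call lost without vehicle replicate 3 or cotreatment replicates 2 or 5 and with an offset for exon length and GC content. Its paralog Prps1 was lower by -0.19 (edgeR adjusted P = 0.00683) without reaching the fold limit. Pfas, the purine enzyme between GART steps, was at -0.24 (edgeR adjusted P = 0.00884), likewise short of it. Ctps2, the second CTP synthase, went the other way from Ctps, from 70.3 ± 7.29 to 84.1 ± 5.37 CPM (n = 5; 0.26, edgeR adjusted P = 0.00576), also short of the fold limit. Adss was at -0.15, Impdh1 at -0.13, Prpsap1 at -0.04 and Gmps at -0.00, and the muscle isoform Adssl1 and Prpsap2 were also not called.

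Linked pathways were taken from lists of their genes, and their counts after cotreatment stand beside 10.4% lower, 13.1% higher and a median of -0.02 over all genes tested. Of 12 genes for deoxynucleotide synthesis, 4 were called lower and 0 higher after cotreatment, and the median was -0.27. Thymidylate synthase, Tyms, was at 36.2, 34.8, 38.4, 35.5 and 38 CPM in vehicle tumors and at 19, 22.3, 20.1, 27.8 and 24 CPM in cotreated tumors. The groups were far apart (-0.69, SE 0.087, edgeR adjusted P = 5.25e-06). Dctd, which makes the dUMP that Tyms uses, fell from 47.2 ± 3.59 to 30.9 ± 2.55 CPM (n = 5; -0.61, edgeR adjusted P = 6.42e-07). Dctpp1 (-0.66), a dCTP pyrophosphatase, and Samhd1 (-0.32), which degrades deoxynucleotides, were the others. Samhd1, at the fold limit, lost its call in 15 of 20 fits without 1 tumor, and within the later library codes alone neither Samhd1 (-0.25) nor Dctpp1 (-0.43) was called. Samhd1 and Dctpp1 break nucleotides down rather than make them.

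Folate enzymes carry the one-carbon units that the purine ring and Tyms need, and 4 of 13 were called lower and 0 higher (median -0.16), beside 10.4% and 13.1% of all genes. They were Mthfd1 (-0.38), Mthfd2 (-0.65), Shmt1 (-0.36) and Shmt2 (-0.46), of the cytosol and the mitochondrion, and Shmt1 was not called without cotreatment replicate 3. Within the later library codes alone Mthfd2 was called (-0.54), and Mthfd1 (-0.31), Shmt1 (-0.23) and Shmt2 (-0.33) were not. Mthfd2 went from 73.5 ± 8.46 CPM in vehicle to 47 ± 3.54 CPM in cotreated tumors (n = 5; edgeR adjusted P = 9.69e-05). Of 10 genes for serine and glutamine supply, 3 were called lower, namely Psat1 (-0.46), Slc1a5 (-0.35) and Asns (-0.35), and 1 higher, the latter share being below the 13.1% of all genes. Slc1a5 was not called without vehicle replicates 1 or 2 or cotreatment replicate 3, nor Asns without vehicle replicate 3 or cotreatment replicate 3. Within the later codes alone none of these 3 was called (Psat1 -0.31, Slc1a5 -0.30, Asns -0.29). The higher one was Glul, glutamine synthetase, at 141, 132, 124, 136 and 133 CPM in vehicle and 176, 239, 211, 170.3 and 239 CPM in cotreated tumors. The 2 groups did not overlap (0.64, SE 0.094, edgeR adjusted P = 3.03e-05).

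Salvage genes were read against the same 10.4% lower and 13.1% higher over all genes. Of 8 purine salvage genes 2 were lower, Dck (-0.48), a deoxynucleoside kinase, and Mtap (-0.32), which frees adenine from methylthioadenosine, and 0 higher. Mtap lost its call in 15 of 20 fits without 1 tumor. Of 8 pyrimidine salvage genes 2 were lower, Uck2 (-0.38), a uridine-cytidine kinase, and Upp1 (-0.59), a uridine phosphorylase, while mitochondrial thymidine kinase Tk2 was higher (0.38), a share of 1 in 8 that is close to that of all genes. Of 4 nucleoside transporters that passed the filter, out of 7 listed, 0 were called, with a median of 0.17.

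The genes on the list for nucleotide breakdown went mostly the other way, with Dpyd, Dpys and Upb1 below the filter on low counts. Dctpp1 (-0.66) and Samhd1 (-0.32) also break nucleotides down, but stood on another list and were called lower after cotreatment. The uridine phosphorylase Upp1 (-0.59), listed under salvage, was called lower too. Of 8 genes on the breakdown list that passed the filter, out of 11 listed, 5 were called higher and 1 lower after cotreatment. Their median was 0.61, and 13.1% and 10.4% of all genes were called higher and lower. After cisplatin 4 were higher and 1 lower, beside 6.01% and 4.57%. The single lower call after cotreatment is near the share over all genes, and that after cisplatin, 12.5% of the 8, is above it. Xdh, xanthine dehydrogenase, which ends purine breakdown in uric acid, was at 143, 134, 111, 134 and 119.8 CPM in vehicle tumors, at 188, 226, 243, 362 and 335 CPM after cisplatin and at 327, 548, 391, 322 and 563 CPM after cotreatment. Both treated groups lay above vehicle, by 1.07 (SE 0.180, edgeR adjusted P = 0.000623) and 1.74 (SE 0.183, edgeR adjusted P = 1.58e-06) on the log2 scale. Ampd3, which deaminates AMP, rose from 25.1 ± 3.51 to 73.2 ± 26.4 CPM after cotreatment (n = 5; 1.54, edgeR adjusted P = 0.000634). Nt5c2, which removes phosphate from IMP and GMP, went from 71.4 ± 2.53 to 112 ± 15.5 CPM (n = 5; 0.65, edgeR adjusted P = 1.65e-06), and Gda, guanine deaminase, was higher by 0.57. The fifth, the muscle deaminase Ampd1, was at most 0.261 CPM in vehicle tumors and 10.7 CPM in 1 cotreated tumor, replicate 4, without which its log2 fold change went from 4.17 to 2.63 and was still called. Summed skeletal muscle markers had a median of 5.51 CPM (5.25 to 59.9) in vehicle tumors, 152 CPM (4.47 to 274) after cisplatin and 15.6 CPM (3.81 to 1174) after cotreatment, and their part in the result was not tested. Nt5e, the surface enzyme that makes adenosine, was lower by -0.53.

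**Figure D4:**
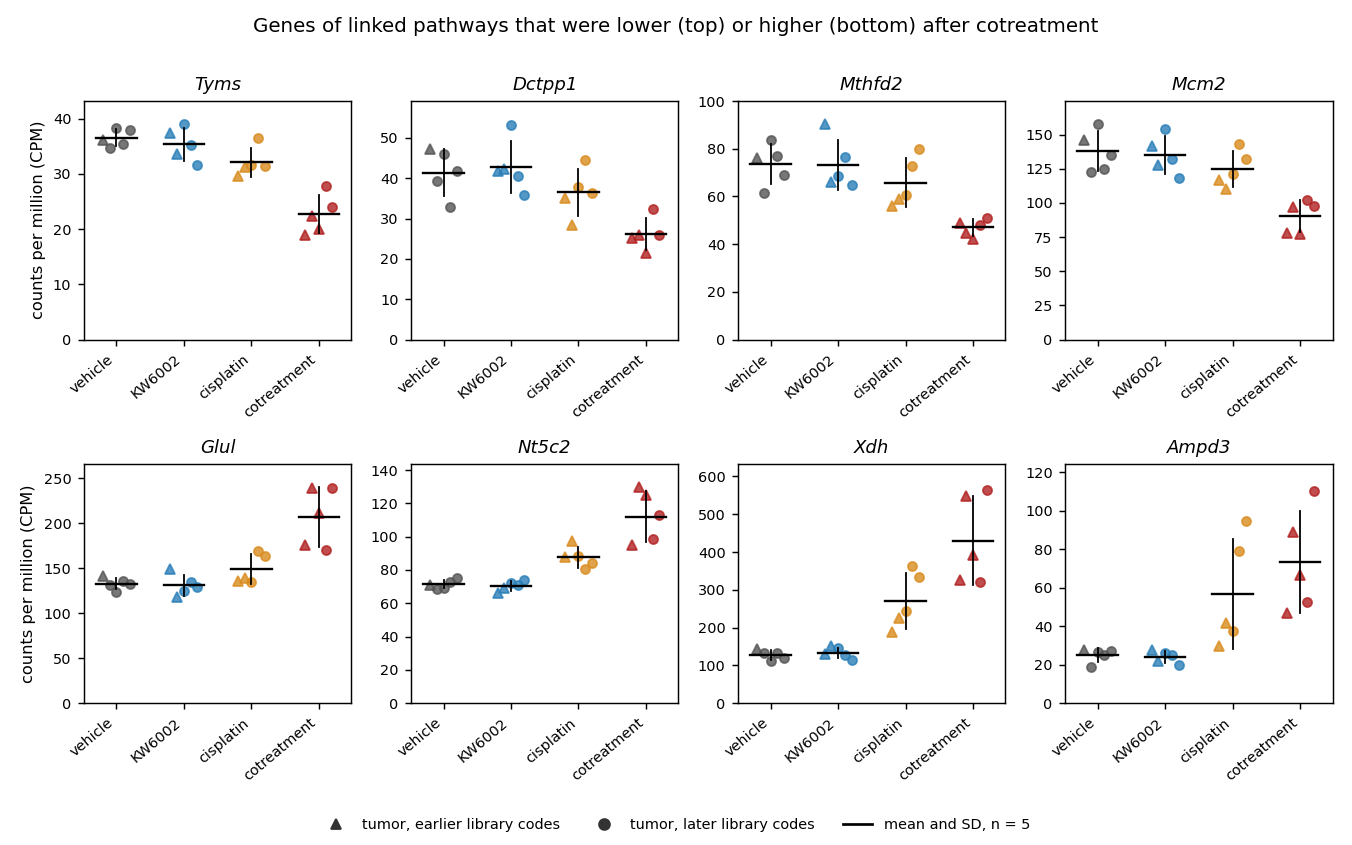
CPM (y axis, from 0) of 8 genes of linked pathways in each tumor by group (x axis), with the mean and SD of 5 tumors. Tyms, Dctpp1, Mthfd2 and Mcm2 (top) are lower after cotreatment, and Glul, Nt5c2, Xdh and Ampd3 (bottom) are higher, with Xdh at 322 to 563 CPM.

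Regulators and markers of dividing cells were read beside these genes. Of 9 regulators tested, 2 were lower and 1 higher after cotreatment, beside 10.4% and 13.1% of all genes. Myc stood at 350.2 ± 52.6 CPM with vehicle, 356 ± 50.5 CPM with KW6002, 307 ± 76.6 CPM with cisplatin and 249 ± 36.8 CPM with both drugs (n = 5), and the last differed from vehicle by -0.49 (edgeR adjusted P = 0.0117). Within the later library codes alone this was -0.29 (edgeR adjusted P = 0.384). Relative to the mean of all vehicle tumors, Myc stood at 0.25 in the 1 vehicle tumor and -0.43 in the cisplatin tumors of the earlier codes, and at -0.06 in both groups of the later codes. E2f1, which drives entry into S phase, was lower by -0.32, at the fold limit, and lost its call in 14 of 20 fits without 1 tumor and within the later codes. Mtor, the kinase at the head of growth signaling, was higher by 0.53, and by 0.32, at the fold limit, within the later codes (edgeR adjusted P = 0.0245). Of 12 proliferation markers, 8 were called lower and 0 higher after cotreatment, with a median of -0.43, beside 10.4% and 13.1% of all genes. After cisplatin 0 were called in either direction, beside 4.57% lower and 6.01% higher over all genes, with a median of -0.14, and by the adjusted P alone 3 of the 12 were lower, beside 8.24%. Mki67 went from 417 ± 46.8 to 274 ± 40.6 CPM (n = 5; -0.60, edgeR adjusted P = 5.99e-05), Mcm3 differed by -0.66, Mcm2 by -0.60 and Mcm6 by -0.48. The part of these markers in the decrease of the nucleotide genes was not tested.

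**Figure D5:**
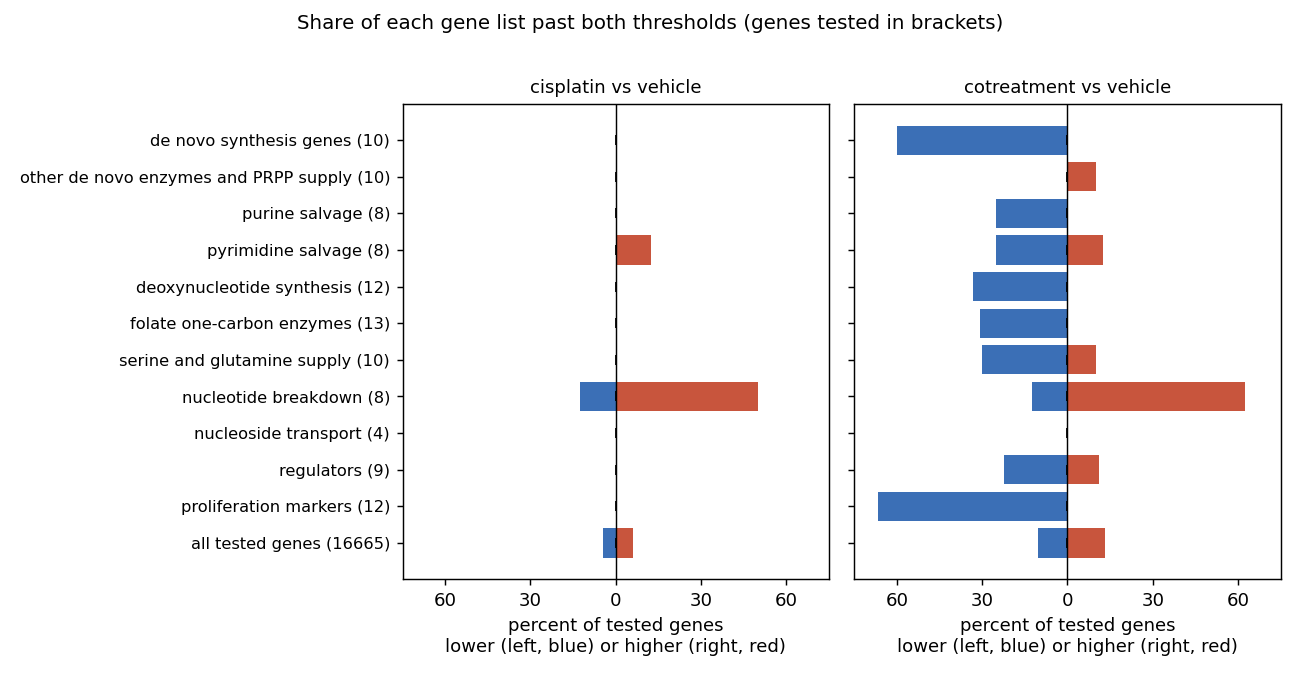
Percent of the tested genes of each list (y axis, number tested in brackets) past both thresholds, lower to the left and higher to the right, after cisplatin (left panel) and cotreatment (right panel) against vehicle. The bar of the de novo synthesis genes includes Umps, which was picked for its low level after cotreatment, and of the 12 proliferation markers 8 are lower, beside 10.4% of all tested genes.

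Markers of other cells also moved with treatment. Summed endothelial markers had a median of 166 CPM in vehicle (145 to 215), 153 in KW6002 (126 to 203), 78.8 in cisplatin (71.5 to 99.8) and 91.7 CPM in cotreated tumors (78.7 to 117). Of 6 such markers, 6 were called lower after cisplatin and 5 after cotreatment, where 4.57% and 10.4% of all genes were. Red cell genes had a median of 44.9 CPM in vehicle (26 to 117) and 0.11 CPM in cotreated tumors (0.0979 to 0.22), where 2 of 6 were at 0 in every tumor. Summed neutrophil markers fell from a median of 71.3 CPM (44.7 to 120.1) to 17.1 CPM (13.6 to 32.4), with 4 of 5 tested called lower. Macrophage markers (2712 and 2877 CPM) and fibroblast markers (2888 and 2710.1 CPM) had like medians in the same groups, with 1 of 7 macrophage markers called higher and 1 lower, and 2 of 6 fibroblast markers called lower, beside 13.1% higher and 10.4% lower over all genes, and the macrophage counts are near these shares. Between cotreated and cisplatin tumors 0 markers of these 5 cell types, and 0 of T, natural killer and B cells, were called, where 1.71% of all genes were lower. Against KW6002 tumors, 5 of 7 T and natural killer markers and 1 of 2 B cell markers were lower after cotreatment, beside 10.7% of all genes, with T and natural killer sums of 4.22 to 25.4 CPM in KW6002 and 2.83 to 5.74 CPM in cotreated tumors. B cell sums had a median of 0.871 CPM (0.601 to 44.1) in KW6002 and 0.954 CPM (0.468 to 1.49) in cotreated tumors. The KW6002 tumor at 44.1 CPM thus stood far above the median of its group, and the cotreated median was not lower. The part of these cells in the levels of the nucleotide genes was not tested.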

How the data were processed

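RNA from 20 subcutaneous LLC1 tumors was sequenced as poly(A)-selected, strand-marked libraries with single-end reads of 50 bases. Per the labels and the methods of the study, the authors used bcl2fastq 2.17.1.14, aligned reads with STAR (version 2.5.3a) to mm10, and counted uniquely aligned reads per gene with HTSeq 0.6.1p1 and Ensembl annotation. The strand option and the Ensembl release for these tumors were not given unambiguously in the sources used here. The deposited values are raw counts, 1 column per tumor. The table names genes by Ensembl identifier, and 35142 of 35226 matched a symbol in GENCODE M21 (GRCm38), which also gave positions and exon lengths. Promoter windows came from RefSeq (GRCm38.p6).

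Counts were analyzed in R 4.3.3 with edgeR 4.0.16, using trimmed mean of M values scaling, its filter by group, robust quasi-likelihood fits and 1 mean per group over all 20 tumors. The 16665 genes tested held 99.9% of counts. P values are two-sided, adjusted over all genes tested, and the prior count for log2 CPM was 2. The labels do not say more than that the tumors are separate samples. No 2 libraries of a group agreed within sampling noise (chi-square per gene of 8.09 or more). The fit was tested on simulated data. DESeq2 1.42.0, other scalings, filters and sample sets were tried as alternatives. All count columns were mapped to a tumor.

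The 10 genes, the other lists and the tests were chosen with earlier results of these data known. Umps was picked on the cisplatin and cotreated tumors. Its values in comparisons with these are descriptions, and the report counts the other 9 genes there. Genes named beyond the 10 were the 10 remaining de novo and PRPP genes, up to 4 genes with the smallest adjusted P per further list among those called in cotreatment against vehicle, and the 5 profiles nearest to Umps. Ampd1, Nt5e and Ndufaf3 were added after their values were seen. In the lists for deoxynucleotide synthesis and for nucleotide breakdown 1 gene each is not reported here and was left out of the counts and medians, for a reason that has nothing to do with its values.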

Additional observations from a re-analysis of the deposited data

Results flagged for a closer look

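In 40 tests of a single tumor standing apart within a group of 5, 1 result passed Dixon's 95% limit, where chance passes about 1 in 20. Atic was at 352 CPM in vehicle replicate 4, against 303 to 316 CPM in the other 4 vehicle tumors. The same tumor was the highest vehicle tumor for Ctps (129.8 CPM), Ppat (75.9 CPM), Gart (193 CPM), Paics (400.0 CPM) and Impdh2 (55.8 CPM), and the lowest for Cad (176 CPM). Without it, Atic remained lower after cotreatment.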

How the results depend on the processing

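Counts here are of all 10 genes, Umps included, which was picked on cotreated and cisplatin tumors, so that its calls are no support. No fold change of the 10 genes past both thresholds changed sign under another scaling, filter, tool, sample set or left-out tumor. For cotreatment against vehicle the count of 6 became 5 with the code run as a term and with at least 10 counts in every tumor, where Adsl was not called, 4 within the later library codes, 7 with an offset for exon length and GC content, where Paics was called, and 8 with no fold limit, while the genes called in all went from 3914 to 3821, 3296, 2209, 4174 and 5906. All calls among the 10 genes there were lower, and the genes called lower in all went from 1739 to 1686, 1418, 920, 2157 and 2957. With no fold limit, 3 genes passed for cisplatin against vehicle (of 2752 in all, 1373 of them lower). Under the same setting 8 passed for cotreatment against KW6002 (of 5837, 2939 lower) and 3 for cotreatment against cisplatin (of 1086, 537 lower). For cotreatment against cisplatin 0 were called within the later library codes, where 1 gene was called in all and Umps was at -0.36. Within the earlier ones 2 were called, Umps and Atic, of 287 in all, 111 of them lower. For cotreatment against KW6002 the count of 4 was 4 within the later library codes (of 1654 genes called in all). It was 6 within the earlier ones (of 3440), where Adsl and Impdh2 were called. With the length and GC offset it was 5 (of 4058), where Adsl was called. The earlier run alone and the length and GC offset were chosen after seeing the data. For the interaction, 1 gene, Umps, was called lower by DESeq2 (258 genes in all, 113 lower) and with at least 10 counts in every tumor (39, 14 lower). Umps was also called with the code run as a term (17, 7 lower) and with the length and GC offset (36, 17 lower). Leaving out 1 tumor gave 0 to 0 calls for KW6002 and for cisplatin against vehicle, 3 to 6 for cotreatment against vehicle, 4 to 5 against KW6002, 1 to 2 against cisplatin and 0 to 1 for the interaction. The count of 3 came without vehicle replicate 4, the 2 without cisplatin replicate 2, and the interaction call without KW6002 replicate 5, cisplatin replicate 1 or cotreatment replicate 4. Of 31 further genes named for cotreatment against vehicle, 24 kept their call whichever tumor was left out and 21 within the later library codes, where Samhd1, Dctpp1, Mthfd1, Shmt1, Shmt2, Psat1, Slc1a5, Asns, E2f1 and Myc were not called. Mtap, Samhd1 and E2f1, at the fold limit, lost it in 15, 15 and 14 of 20 such fits, and also under DESeq2 and relative log expression scaling. Prps2 lost it without vehicle replicate 3 or cotreatment replicates 2 or 5 and with the length and GC offset, Slc1a5 without vehicle replicates 1 or 2 or cotreatment replicate 3, Asns without vehicle replicate 3 or cotreatment replicate 3, and Shmt1 without cotreatment replicate 3. Same-numbered tumors did not deviate together (30 pairs, correlation -0.39 to 0.39, median -0.03; 3 of 20 tumors closest to their own number), and a replicate block left the counts at 0, 0, 6, 4, 1 and 0. The causes were not tested.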
